A study of Mus musculus with 6 samples.

Results

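The fibrous sheath and the outer dense fibres are the structural sleeves of the mouse sperm tail, and the 10 genes described here encode proteins of these sleeves or of the tail region around them. They are Akap3, Akap4, Ropn1, Ropn1l and Cabyr of the fibrous sheath, Odf1 and Odf2 of the outer dense fibres, and Smcp, Oaz3 and Spata18, which are tied to the mitochondria of the midpiece or to polyamine control. A probe was a member when its gene symbol in the platform annotation was 1 of these 10 names, which gave 22 of the 45281 probes on the array. Of these, 20 were detected on at least 3 of the 6 arrays and were tested among 19763 probes in all, so every one of the 10 genes was measured, among 11264 named genes.

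Testis RNA came from 6 C57Bl/6 males aged 4 months, with 1 array per mouse on Illumina MouseWG-6 BeadChips, and the placing of mice on chips was not analysed here. SD mice 1, 2 and 5 ate a standard diet, and WD mice 3, 4 and 6 ate a high-fat diet, which the study also describes as rich in sugar and calls Western-like. All 6 mice were of the same strain with no altered allele or drug named in the labels. The study states that males with the most marked response to the diet were kept out of the random draw for the arrays, so WD here stands for the remaining males. Arrays of mice 5 and 6 were the dimmest, with median raw intensities of 126.2 and 120.1 against 146.6 to 172.5 in the others, and between 42% and 47.1% of probes were detected on each array.

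Spermatids build the tail late in spermatogenesis, when the genome is already haploid and is being compacted. Outer dense fibres are cysteine-rich rods that run beside the microtubule doublets, and the fibrous sheath surrounds them in the principal piece, where it anchors protein kinase A and enzymes of glycolysis. Messenger RNAs of many such proteins accumulate in round spermatids and are translated only later. A level in whole testis therefore reflects both how many spermatids there are and how much of the messenger each one holds, and fewer cells and less RNA per cell cannot be told apart in these samples.

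Promoters of Akap3, Akap4 and Smcp are shown because they hold the same 8 letters close to the transcript start, TGATGTCA, which differ by 1 letter from TGACGTCA, the cyclic AMP response element that CREM binds in spermatids. The run was picked after the promoters had been read, so its presence in these genes is a description. Sequences are from RefSeq on build GRCm38.p6, with 250 bases before and 50 after the annotated start, and capitals mark TGATGTCA read on either strand. Akap3 lies at chr6:126852848-126853147 on the plus strand, Akap4, of which this is the first of 2 annotated starts, at chrX:7067265-7067564 on the plus strand, and Smcp at chr3:92589024-92589323 on the minus strand.
Akap3: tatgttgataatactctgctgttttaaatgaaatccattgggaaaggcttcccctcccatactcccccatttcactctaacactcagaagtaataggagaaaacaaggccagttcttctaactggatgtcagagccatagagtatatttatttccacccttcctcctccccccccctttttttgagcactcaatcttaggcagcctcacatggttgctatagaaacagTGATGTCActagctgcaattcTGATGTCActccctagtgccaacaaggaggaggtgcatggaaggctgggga
Akap4: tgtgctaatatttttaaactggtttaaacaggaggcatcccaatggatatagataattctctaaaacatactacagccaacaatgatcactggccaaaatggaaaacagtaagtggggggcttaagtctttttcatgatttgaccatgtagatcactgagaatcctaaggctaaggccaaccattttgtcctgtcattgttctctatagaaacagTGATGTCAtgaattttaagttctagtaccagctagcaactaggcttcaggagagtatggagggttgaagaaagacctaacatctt
Smcp: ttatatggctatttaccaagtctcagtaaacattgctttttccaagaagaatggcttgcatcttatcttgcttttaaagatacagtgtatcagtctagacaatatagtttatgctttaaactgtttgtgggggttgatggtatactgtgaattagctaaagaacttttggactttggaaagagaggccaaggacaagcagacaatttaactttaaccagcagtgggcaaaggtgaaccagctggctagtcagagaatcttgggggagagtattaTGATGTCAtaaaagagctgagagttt
Counting the start as position 1, TGATGTCA begins at -22 and again at -1 in Akap3, at -35 in this Akap4 promoter and at 25 in Smcp, and it is not in the promoter of the other Akap4 start. It occurs in 1189 of the 32851 promoters of the table (3.62%). The promoters of Akap3 and Akap4 also share a longer run of 20 bases that ends in these letters, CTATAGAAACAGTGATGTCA, which begins at -34 and -47. Among all 32851 promoters it occurs in those of these 2 genes and no others.

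Promoters of 7 of the 10 genes were read here, 11 promoters in all. TGACGTCA itself (588 promoters, 1.79%) and TATAAA (13.6% of all promoters) were in none of the 11, on either strand. TGACG, which is also the first part of TGACGTCA, was found in promoters of Odf2 and Spata18 (20.8% of all), and CCAAT in promoters of Akap3, Akap4 and Odf2 (37.4% of all). The GC content differed widely, from 38% in Smcp and 38.3% in the printed Akap4 promoter to between 68% and 74.3% in the promoters of Odf2. A match of letters is a description of the window and names no bound factor.

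Signal at the brightest probes was high in the testis of every mouse, and none of the 10 genes passed the threshold between the diets. At the brightest probe of a gene, 9 of the 10 lay above the 98th percentile of all probes on every array, Ropn1l being the exception between percentiles 79 and 81.9. Other probes of the same genes were dimmer, for instance Akap4 probe ILMN_2759971 between percentiles 76.8 and 79.2. With quantile normalized log2 values, 3 genes had a higher and 7 a lower mean in WD (2 lower under median scaling), with differences from -0.23 for Ropn1 to 0.12 for Spata18. The 95% interval of the difference stayed within 1.5-fold either way for 9 genes, all but Ropn1, and within 2-fold for all 10.

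In limma, no tested member probe had an adjusted p under 0.05, as was the case for 0 of the 19763 probes (0%), with adjusted p from 0.905 to 0.999 among the members and 0.801 as the lowest of all. At an unadjusted p under 0.05 there was 1 of the 20 member probes (5%) against 1013 of all tested probes (5.13%). The same probe, 1 of 20, was the only tested member probe whose diets did not overlap, against 2006 of all tested probes (10.2%). The share of members with a small p thus lay at the background.

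**Figure D1:**
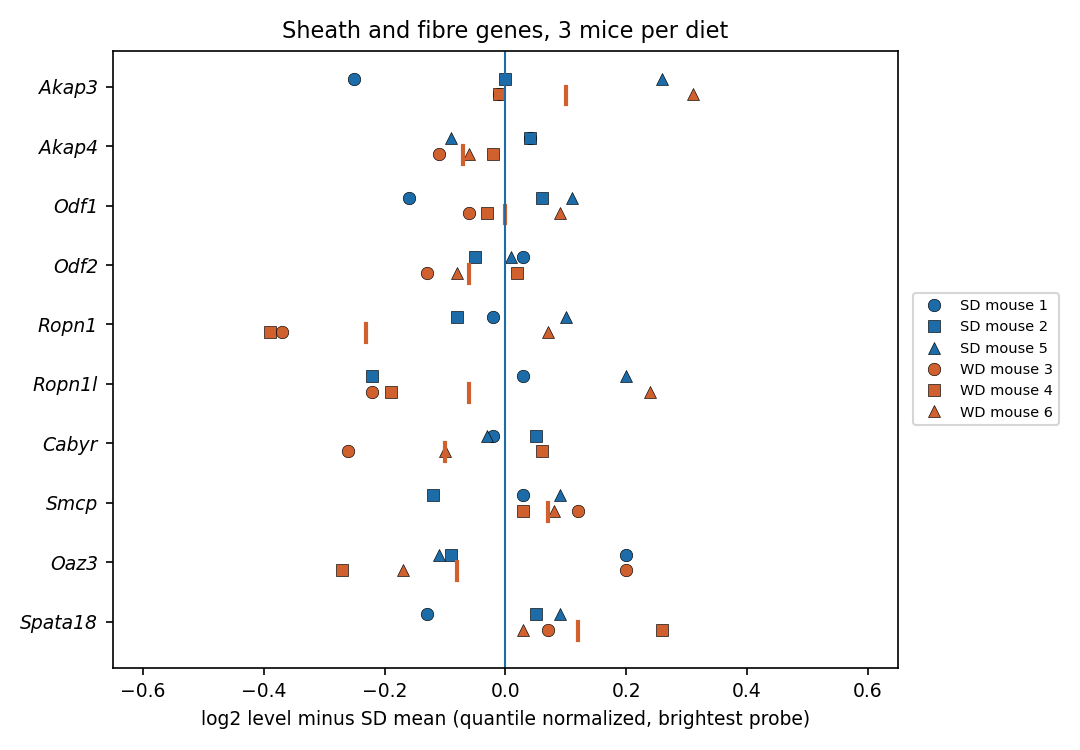
Log2 level of each gene at its brightest probe in each mouse, minus the mean of the 3 SD mice (vertical line at 0), with SD mice in blue, WD mice in orange and the WD mean as an orange bar. The diets overlap in all 10 genes, and the WD mean of Ropn1 lies farthest from 0, at -0.23.

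Akap4, the most abundant protein of the fibrous sheath and an anchor for protein kinase A, had raw intensities of 30347, 28655 and 19949 in SD mice 1, 2 and 5, against 23513, 23638 and 19381 in WD mice 3, 4 and 6. After background correction and quantile normalization these became 14.63, 14.63 and 14.50 in SD and 14.48, 14.57 and 14.53 in WD on the log2 scale. The raw values of mice 5 and 6 were the lowest of their diets, whereas the normalized levels of all 6 mice lay close together and overlapped. The log2 difference was -0.06 (95% interval -0.34 to 0.22, adjusted p = 0.974). The SD within a diet was 0.0617, the smallest of the 10 genes.

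Akap3, the other main anchoring protein of the sheath and a binding partner of Akap4, was at 13.00, 13.25 and 13.51 in SD mice 1, 2 and 5 and at 13.24, 13.24 and 13.56 in WD mice 3, 4 and 6. SD mouse 1 was lowest, mice 5 and 6 were highest, and the diets overlapped throughout. The difference was 0.09 (-0.31 to 0.49, adjusted p = 0.973), and the SD within a diet of 0.224 was larger than in 94.8% of tested probes of similar level. With quantile normalized values, the levels of Akap3 and Akap4 ran in opposite directions over the 6 mice (Pearson's r = -0.601, a description). Under median scaling both genes were highest in mice 5 and 6. Relative to the SD mean these were then at 0.62 and 0.75 for Akap3 and at 0.36 and 0.48 for Akap4.

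Ropn1 encodes ropporin, a small sheath protein with a domain like that by which protein kinase A docks on its anchors. Its raw intensities were 20148, 18529 and 15649 in SD mice 1, 2 and 5, against 13177, 12804 and 14394 in WD mice 3, 4 and 6. The normalized log2 levels were 14.02, 13.96 and 14.14 in SD and 13.67, 13.65 and 14.11 in WD. WD mice 3 and 4 were below every SD mouse, but WD mouse 6 was within the SD range. The difference of -0.23 (-0.60 to 0.14) had an unadjusted p of 0.194 and an adjusted p of 0.935, and it was the largest of the 10 genes in size. Between mice 1 to 4 alone it was -0.33, and between mice 6 and 5 it was -0.03.

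Ropn1l, the paralog of Ropn1, had raw intensities at its single probe of 484, 395 and 367 in SD and 386, 362 and 356 in WD. Its log2 levels were 8.18, 7.93 and 8.35 in SD mice 1, 2 and 5, against 7.93, 7.96 and 8.39 in WD mice 3, 4 and 6. The mice again overlapped, with mice 5 and 6 highest. The difference was -0.06 (-0.47 to 0.35, adjusted p = 0.984). Over the 6 mice the levels of Ropn1 and Ropn1l rose and fell together (r = 0.829).

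Cabyr, a calcium-binding sheath protein that is tyrosine phosphorylated when sperm acquire fertilizing capacity, was measured at 2 probes. The brighter one gave 13.81, 13.88 and 13.80 in SD mice 1, 2 and 5, against 13.57, 13.89 and 13.73 in WD mice 3, 4 and 6. WD mouse 3 was lowest and WD mouse 4 highest, so that the WD mice spanned the SD mice. The difference was -0.10 (-0.41 to 0.21, adjusted p = 0.965), and at the other tested probe it was 0.02 (adjusted p = 0.991). The remaining Cabyr probe was detected on no array and was not tested.

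Odf1 encodes a small cysteine-rich fibre protein whose raw intensities were 26382, 28885 and 24134 in SD and 24219, 23706 and 21822 in WD. Normalized levels were 14.44, 14.66 and 14.71 in SD mice 1, 2 and 5, against 14.54, 14.57 and 14.69 in WD mice 3, 4 and 6. All 3 WD mice fell inside the range of the SD mice. The difference was -0.001 (-0.31 to 0.31, adjusted p = 0.999), the smallest of the 10 genes. With quantile normalized values, Odf1 and Akap3 had the highest correlation of all 45 pairs of genes (r = 0.908).

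**Figure D2:**
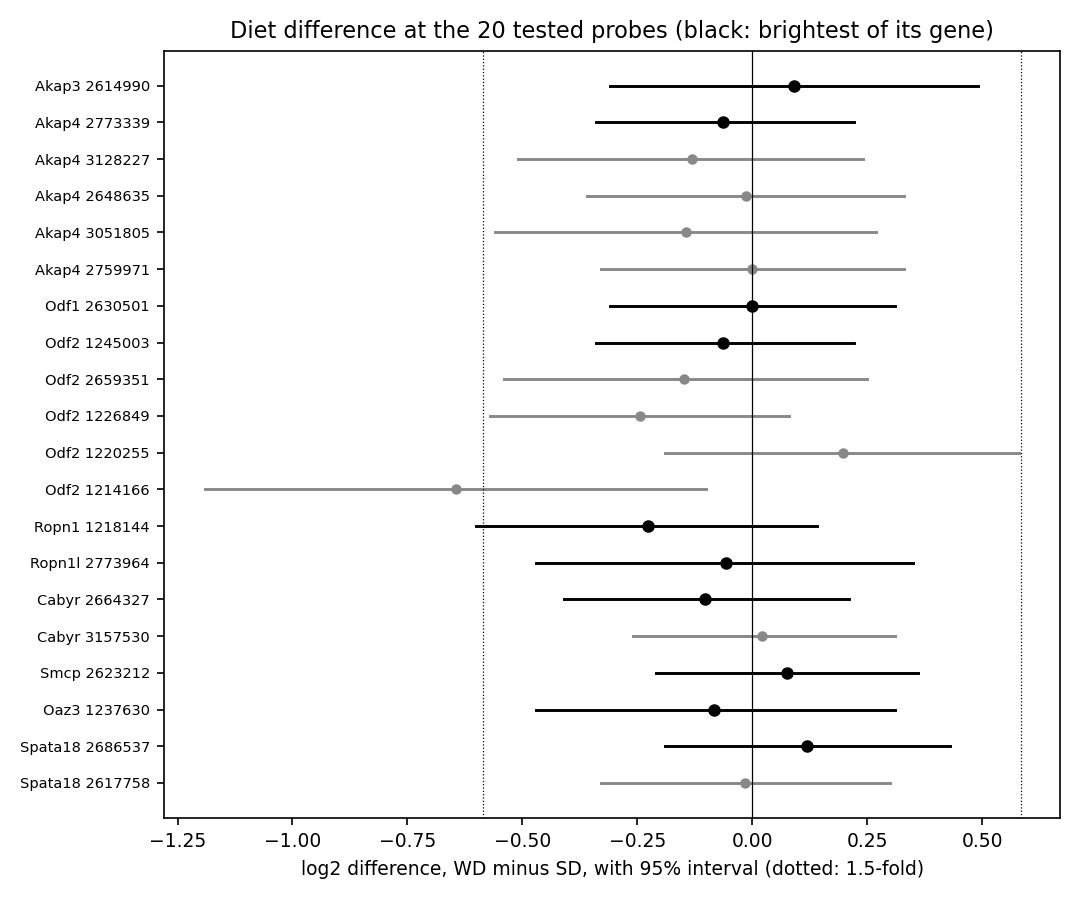
Log2 difference (WD minus SD) and its 95% interval at each of the 20 tested probes, labelled by gene and by probe number without its prefix, with the brightest probe of each gene in black and dotted lines at 1.5-fold. Every interval includes 0 except that of the Odf2 probe ILMN_1214166, at -0.65.

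Odf2 encodes a scaffold protein that serves in the outer dense fibres and, as other isoforms, in centriole appendages, and RefSeq lists 13 curated coding transcripts for it. Of its 6 probes, 5 were tested. At the brightest, the levels were 14.61, 14.53 and 14.59 in SD mice 1, 2 and 5, against 14.45, 14.60 and 14.50 in WD mice 3, 4 and 6, which overlapped, and the difference was -0.06 (-0.34 to 0.22, adjusted p = 0.974). The other tested probes did not all point the same way.

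Probe ILMN_1226849 gave 13.52, 13.51 and 13.21 in SD mice 1, 2 and 5, against 13.09, 13.26 and 13.16 in WD mice 3, 4 and 6. SD mice 1 and 2 stood above the rest, and SD mouse 5 lay among the WD mice (difference -0.24, -0.57 to 0.08, adjusted p = 0.935). Probe ILMN_1220255 went the other way at 0.20 (-0.19 to 0.58, adjusted p = 0.948), and probe ILMN_2659351 gave -0.15 (adjusted p = 0.965). Over the 6 mice, pairs of Odf2 probes had r from -0.806 to 0.787, with 6 of 10 pairs above 0. The positions of the probes within the Odf2 transcripts were not analysed here.

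Probe ILMN_1214166 of Odf2 was the only member with an unadjusted p under 0.05 in the main fit, and it was close to background. Its raw intensities were 212.5, 203.7 and 148.5 in SD mice 1, 2 and 5, against 149.5, 162.1 and 137.6 in WD mice 3, 4 and 6, and it was detected in all 3 SD mice but in 2 of the 3 WD mice. Normalized levels were 6.00, 6.25 and 5.87 in SD and 4.87, 5.57 and 5.75 in WD, with WD mouse 3, where the detection p was 0.302, far below the rest. All SD mice were above all WD mice on this scale, but not in raw intensity, where SD mouse 5 was below WD mice 3 and 4. The difference was -0.65 (-1.19 to -0.10), 1.56-fold lower in WD, with an unadjusted limma p of 0.0253 and an adjusted p of 0.905, a fold that rests in part on a value not above background. Without WD mouse 3 the difference was -0.38, and with no background correction or with the authors' log2 values it was -0.20. It was -0.91 between mice 1 to 4 and -0.12 between mice 6 and 5. The sixth Odf2 probe was detected on no array.

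**Figure D3:**
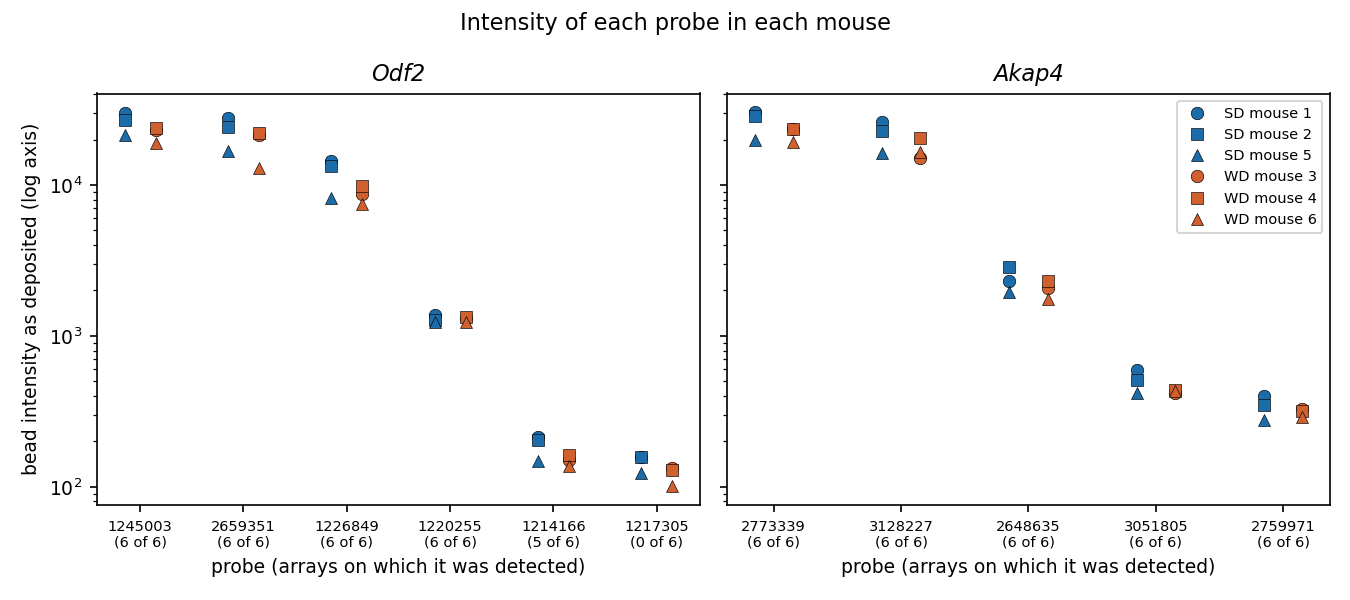
Bead intensity as deposited, before background correction, on a log axis for each probe of Odf2 (left) and Akap4 (right) in each mouse, with SD mice in blue and WD mice in orange, and below each probe the number of arrays on which it was detected. Probes of the same gene differ widely in brightness, down to background for ILMN_1217305 of Odf2, and mice 5 and 6 (triangles) are mostly lowest in their diet.

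Akap4 was read by 5 probes, each detected on all 6 arrays, and each had a mean in WD at or below that in SD, although 4 of the 5 turned under median scaling. The differences at the 4 dimmer probes were -0.13, -0.01, -0.14 and -0.001, with adjusted p from 0.965 to 0.999. Pairs of these probes had r above 0 in 9 of 10 cases, from -0.0918 to 0.919 with a median of 0.18. The second brightest probe shows how far a single mouse weighs, since its levels were 14.43, 14.25 and 14.20 in SD mice 1, 2 and 5, against 13.87, 14.30 and 14.30 in WD mice 3, 4 and 6. WD mouse 3 alone lay below the SD mice, and without it the difference of -0.13 became 0.013.

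Smcp encodes a cysteine-rich protein of the mitochondrial capsule in the midpiece, whose messenger is held back from translation in spermatids. Its raw intensities of 32081, 27873 and 25275 in SD and 29206, 26921 and 23646 in WD placed it between rank 43 and rank 71 on every array. The log2 levels were 14.73, 14.58 and 14.79 in SD mice 1, 2 and 5, against 14.82, 14.73 and 14.78 in WD mice 3, 4 and 6. SD mouse 2 was lowest and the other mice overlapped. The difference was 0.07 (-0.21 to 0.36, adjusted p = 0.972). Over the 6 mice, Smcp and Akap4 were the pair with the most opposite levels on the quantile normalized scale (r = -0.822). Under median scaling, both were highest in mice 5 and 6.

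Oaz3, the testis-specific antizyme that restrains ornithine decarboxylase in haploid germ cells, had raw intensities of 35538, 27843 and 20541 in SD mice 1, 2 and 5, against 30442, 21872 and 18785 in WD mice 3, 4 and 6. Its log2 levels were 14.86, 14.57 and 14.55 in SD and 14.86, 14.39 and 14.49 in WD. Mouse 1 of SD and mouse 3 of WD stood together above the other 4, so the spread within each diet exceeded the difference of -0.08 (-0.47 to 0.31, adjusted p = 0.974).

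Spata18, known for its part in the quality control of mitochondria, gave 12.88, 13.06 and 13.10 in SD mice 1, 2 and 5, against 13.08, 13.27 and 13.04 in WD mice 3, 4 and 6 at its brighter probe. WD mouse 4 was highest and SD mouse 1 lowest, and the others overlapped. The difference was 0.12 (-0.19 to 0.43, adjusted p = 0.965), the highest of the 10 genes. At the second probe it was -0.02 (adjusted p = 0.995), and the levels of the 2 probes did not run together over the mice (r = -0.161).

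As a group the 10 genes had a median difference of -0.06 on the log2 scale, against 0.007 over all 11264 named genes and -0.001 over all tested probes. Of the 20 tested member probes, 15 had a lower and 5 a higher mean in WD, where 50.2% of all tested probes were lower. Probes of the same gene share its messenger and all probes share the same mice, so these counts are a description. The median size of the difference, whatever its sign, was 0.079 in the 10 genes and 0.127 over all tested probes. Their median SD within a diet was likewise smaller, at 0.116 against 0.206, but among probes of similar level only Akap4, Odf2 and Smcp had an SD below the median.

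The median level of the 10 genes relative to the SD mean was 0, -0.02 and 0.08 in SD mice 1, 2 and 5, against -0.09, -0.02 and 0.05 in WD mice 3, 4 and 6. WD mouse 3 was lowest and mice 5 and 6 were highest, and the diets overlapped. Between mice 1 to 4 the median difference was -0.07, with 6 of 10 genes lower in WD, and between mice 6 and 5 it was -0.02, with 7 of 10 lower. With quantile normalized values, 22 of 45 pairs of the 10 genes had r above 0, and the median r was -0.000304. Under median scaling, by contrast, mice 5 and 6 stood above the other mice in all 10 genes. A common course of the genes over the mice thus depended on the scaling.

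**Figure D4:**
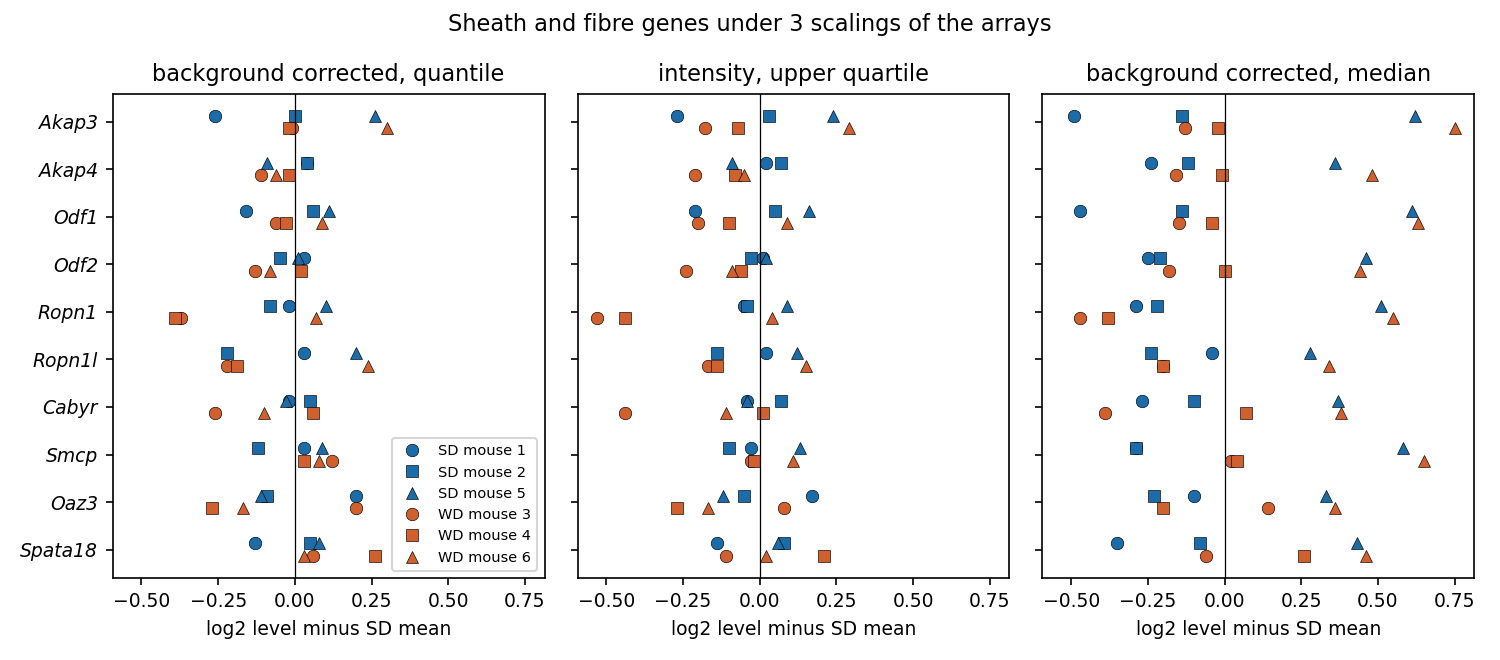
Log2 level of each gene at its brightest probe in each mouse, minus the mean of the SD mice, under quantile normalization (left), upper quartile scaling of the intensities (middle) and median scaling (right), with SD mice in blue and WD mice in orange. Under median scaling the triangles of mice 5 and 6 lie to the right of the other mice in every gene, as in Odf1 at 0.61 and 0.63.

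The scaling of the arrays bore on these bright genes. When each array was scaled to its median after background correction, SD mouse 5 and WD mouse 6 stood above the other 4 mice in all 10 genes, for instance at 0.61 and 0.63 relative to the SD mean for Odf1. The median difference of the 10 genes then became 0.102, with 2 genes lower in WD in place of 7, while the median of all tested probes was 0.04. Under upper quartile scaling of the intensities it was -0.093 with all probes at -0.015. The 95% interval of the difference stayed within 2-fold for all 10 genes under each of the 16 alternatives, and within 1.5-fold for between 3 (median scaling) and all 10.

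Partner genes outside the 10 were close to 0 as well, and none of those listed passed the threshold. Of 18 tested fibrous sheath partners, which include subunits of protein kinase A and sheath enzymes, 9 had a higher and 9 a lower mean in WD, with a median of -0.01. Gstm5, a sheath-associated glutathione transferase, was at 0.11 and Prkar2a, a regulatory subunit of protein kinase A, at -0.16. Prkar1b, another such subunit, was at 0.30 but was detected in 1 SD mouse and 3 WD mice. The lowest p among these partners at a lower mean was that of Prkar2b at -0.12 (adjusted p = 0.965).

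Among 15 tested relatives and partners of the outer dense fibres, 6 were higher and 9 lower with a median of -0.05. Hook1, a linker of spermatid microtubules, was at -0.25 (-0.70 to 0.19, adjusted p = 0.942) and the Odf2 relative Odf2l at -0.23, while the intraflagellar transport gene Ift88 and Odf3l1 were both at 0.11. Among 12 genes of the mitochondrial sheath and annulus, 2 were higher and 10 lower with a median of -0.04. Armc12, needed for the mitochondrial sheath, was at -0.22 and the septin gene Septin7 at -0.17, with 0.09 for Spata19 and 0.08 for Bnip3l. Over the alternatives the medians of the sheath partners ran from -0.05 to 0.078, those of the fibre relatives from -0.116 to 0.011 and those of the mitochondrial list from -0.09 to 0.02.

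Polyamine and antizyme genes were the list farthest from 0 among those of the members' own pathways. Of 10 names listed, 7 were on the array and only 5 were tested. All 5 tested had a higher mean in WD, with a median of 0.25, and 0 passed the threshold. Odc1 was nearest to no difference, at 0.07 (adjusted p = 0.972), with Azin2 at 0.31 and Ppp1r16a at 0.24. Over the alternatives the median ran from 0.149, when all tested probes of a gene were averaged, to 0.314, and it was 0.165 with the authors' log2 values. Srm, which makes spermidine, averaged 6.99 ± 0.164 in the SD and 7.35 ± 0.125 in the WD mice (SD, n = 3 each), a difference of 0.36 with an unadjusted limma p of 0.0345 and an adjusted p of 0.925. Oaz2, a broadly expressed antizyme, was at 0.25 (adjusted p = 0.935). Oaz3 itself was at -0.08.

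Marker lists of the other cells of the testis were read beside these values. Spermatocyte markers had a median of -0.14 (2 of 8 higher), with Rec8 at -0.27 and Piwil1 at 0.11, round spermatid markers 0.03 (6 of 8), with Acrbp at 0.48 and Tssk2 at -0.13, and elongating spermatid markers -0.04 (2 of 8), with Tnp2 at -0.31 and Hspa1l at 0.08. Spermatogonia markers had a median of 0.13 (4 of 5), Sertoli cell markers 0.13 (6 of 7) and Leydig cell markers 0.11 (4 of 6). Red blood cell markers had 0.08 (3 of 5) and macrophage markers 0.31 (7 of 7), with Mrc1 at 0.31 and Cd74 at 0.90. In none of these lists did a gene pass the threshold. Of 5 epididymis markers on the array only Defb48 was tested, detected on 4 arrays, at -0.11.

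Several of these medians changed when a single mouse was left out. Without WD mouse 3 they were -0.014 for Sertoli cell, -0.035 for Leydig cell, -0.064 for red blood cell, 0.16 for macrophage and 0.085 for spermatogonia markers, and 0.054 for Defb48. The median of the spermatogonia markers was lower still without WD mouse 6, at 0.064. Without SD mouse 5 the median of the spermatocyte markers was 0.009. Over all alternatives the medians ran from -0.055 to 0.11 for round and from -0.093 to 0.11 for elongating spermatid markers, from 0.064 to 0.255 for spermatogonia and from 0.16 to 0.436 for macrophage markers. WD mouse 3, the lowest at the brightest probes of Cabyr, Akap4 and Odf2 and in the median of the 10 genes but the highest in Smcp and level with the highest in Oaz3, had list medians relative to the SD mean of 0.59 for macrophage, 0.60 for Leydig cell, 0.36 for spermatogonia and 0.30 for Sertoli cell markers. The part of cell makeup in the values of the 10 genes was not tested.

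The mean of the 10 genes at their brightest probes was 13.516, 13.506 and 13.603 in SD mice 1, 2 and 5, against 13.464, 13.486 and 13.581 in WD mice 3, 4 and 6. Among 3013 other genes with a mean level of at least 10, those with the most similar course over the 6 mice were 1700109H08Rik (r = 0.992), Gm14325 (0.984), Pabpc2 (0.981), Zhx1 (0.981) and Akap7 (0.975), where the median r was 0.064. Pabpc2 encodes a poly(A)-binding protein and Akap7 a further anchor of protein kinase A. These r values are the highest of many over only 6 mice that share arrays and normalization.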

How the data were processed

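The authors deposited GenomeStudio bead intensity values for 45281 probes on 6 arrays, neither background subtracted nor scaled. The deposited detection columns, headed as p, rise with intensity and were read as a score of 1 minus p. The authors' deposited log2 table was matched to within an SD of 0.000152 by subtracting from each log2 intensity its array's upper quartile and then 1 value per probe, equal on all arrays, whose origin was not found. Its scale and its direction were thereby known. Column medians in this table were -0.01725 (SD mouse 1), -0.05636 (SD mouse 2), 0.001854 (SD mouse 5), -0.01196 (WD mouse 3), 0 (WD mouse 4) and 0.007596 (WD mouse 6). The background subtraction and robust multi-array averaging that the study's methods name were not visible in it, and it served as an alternative. No detail of GenomeStudio's version or genome build is given in the sources used here.

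The neqc function of limma 3.58.1 (R 4.3.3) corrected the background through the detection p-values, added an offset of 16 and quantile normalized the arrays. Probes detected (p under 0.05) on at least 3 of 6 arrays were tested, WD minus SD, with lmFit and eBayes, two-sided, and p-values were Benjamini-Hochberg adjusted over 19763 probes. The procedure was tested on simulated data. Differences are on the log2 scale with 95% intervals. Probe symbols came from the platform annotation (34885 probes with 1 symbol, 18 with several, 10378 with none here), and the probe with the highest mean stood for a gene. A Pearson's r is over 6 mice and on quantile normalized values. The number of arrays, 3 per diet, limits precision. Each p-value weighs a diet difference against the spread between these mice within a diet, which eBayes adjusts using all tested probes.

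All members were named at every probe. Of each further list the genes with the smallest p in each direction were eligible, along with the 5 genes most similar to the members' mean. Of the polyamine and antizyme list all tested genes were named. Members and lists were chosen with earlier results of these data known. Alternatives were other background corrections, scalings, filters and variance models, mice 5 and 6 as a block or left out, and each mouse left out.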

Additional observations from a re-analysis of the deposited data

How the results depend on the processing

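No probe passed the threshold under any of the 16 alternatives in limma, while the number at an unadjusted p under 0.05 ranged from 762 (median scaling) to 1572 (without WD mouse 6) over the same 19763 probes, and was 2213 with no filter. The lowest adjusted p of any member probe was 0.542, without WD mouse 6. Which member probes had a small unadjusted p changed with the setting. With the authors' log2 values the unadjusted limma p was 0.0163 for Odf2 probe ILMN_1226849 and 0.0326 for Ropn1 (adjusted p = 0.857 for each). It was 0.0806 for Odf2 probe ILMN_1214166, and 1131 of the 19763 probes were under 0.05. The direction was kept in every alternative run by Ropn1, Smcp and Spata18 at their brightest probes, and turned in at least 1 for the other 7 genes. The filters, the variance trend and the block leave the difference at a probe unchanged, so they could not turn it. The authors' log2 values gave nearly the same differences as upper quartile scaling. Ropn1 ranged from -0.38 to -0.10 and the Odf2 probe ILMN_1214166 from -0.91 to -0.20. That probe could not be tested among probes detected on all 6 arrays, nor could the epididymis list. The causes of the turns were not tested.

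Under median scaling the median of the 10 genes became 0.102, and differences turned for Odf1 (0.145), Akap4 (0.104, and 0.038, 0.039 and 0.021 at probes ILMN_2648635, ILMN_2759971 and ILMN_3128227), Oaz3 (0.1), Odf2 (0.087, and 0.029 at probe ILMN_2659351), Cabyr (0.02) and Spata18 probe ILMN_2617758 (0.051). Without mice 5 and 6 they turned at Akap4 probe ILMN_2648635 (0.02), Cabyr probe ILMN_3157530 (-0.002) and Odf1 (0.008). Cabyr probe ILMN_3157530 was at -0.053 with upper quartile scaling and with the authors' log2 values, and Akap4 probe ILMN_2759971 at 0.001 with no background correction and with the offset of 50.

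Leaving out each mouse in turn, the median of the 10 genes ran from -0.059 (without SD mouse 2) to 0.01 (without WD mouse 4), and was -0.001 without WD mouse 3 and -0.007 without SD mouse 5. Differences ran from -0.038 to 0.22 for Akap3, -0.224 to 0.017 for Oaz3, -0.083 to 0.051 for Odf1, -0.207 to 0.041 for Ropn1l, -0.006 to 0.073 for Cabyr probe ILMN_3157530, -0.246 to 0.009 for Odf2 probe ILMN_2659351 and -0.103 to 0.067 for Spata18 probe ILMN_2617758. For Akap4 they ran from -0.134 to 0.067 (probe ILMN_2648635), -0.112 to 0.081 (ILMN_2759971), -0.323 to 0.002 (ILMN_3051805) and -0.204 to 0.013 (ILMN_3128227). No paired analysis was possible because no number in the sample titles occurs in both diets and their descriptions share only 1 number, 4. The fit with mice 5 and 6 as a block, which holds 1 mouse of each diet, also called 0 probes. The labels do not name these mice as a pair.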
